A study of Homo sapiens with 4 samples.

Results

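The genes of 4 enzyme families that handle drugs, hormones and reactive aldehydes were followed in lung cancer cells after silencing of circZFR, a circular RNA spliced from exons of ZFR. The families are the cytochromes P450 of families CYP1 to CYP4, the glutathione S-transferases (GST, with the microsomal MGST), the UDP-glycosyltransferases (UGT) and the aldehyde dehydrogenases (ALDH). Members were all protein-coding rows whose symbol belongs to one of these families, leaving out ALDH18A1 and ALDH1L2 by name. This gave 96 of the 40205 genes listed, of which 36 are CYP, 21 GST or MGST, 22 UGT and 17 ALDH genes. All 96 matched a RefSeq gene, 1 of them by an older symbol.

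The NC group held 2 libraries (NC 1 and NC 2) of cells that received a negative control siRNA, and the si-circZFR group held 2 libraries (si-circZFR 1 and si-circZFR 2) of cells that received siRNA against circZFR, each for 24 h. The labels give the same tumour cell line for both groups. The line is H1299 in the sample labels and A549 in the article and the design text, both of them human lung cancer lines. No source states that replicates came from separate cultures, so p-values measure only the spread between these libraries, which may be technical. The question asked of these data is which genes of the families differed in RNA level between cells given the siRNA against circZFR and control cells.

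Cytochromes P450 are haem enzymes that insert oxygen into lipophilic substrates, with electrons passed on by POR, and they open the first phase of drug metabolism. Transferases of the second phase then attach glutathione (GST) or glucuronic acid (UGT), and the conjugates leave through transporters such as ABCC3. Aldehyde dehydrogenases oxidize aldehydes, among them retinal and products of lipid peroxidation, to carboxylic acids. The AHR and ARNT receptor pair drives CYP1A1 and CYP1B1 at DNA elements with the core GCGTG, and NFE2L2 with a small MAF partner drives many GST and ALDH genes at antioxidant elements with the core TGACNNNGC. A549 cells carry an inactive KEAP1, the protein that marks NFE2L2 for degradation, and are known for high levels of ALDH1A1, ALDH3A1, AKR1B10 and AKR1C enzymes.

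Values below are scaled RPKM, that is, reads divided by gene length and by the reads of the library, after a correction that sets the libraries on a common scale, and they are given in the order NC 1, NC 2, si-circZFR 1, si-circZFR 2. The libraries held 11040050 to 12816868 reads. ZFR, the host gene of the silenced circle, stood at 26.0 and 31.9 in the NC libraries and at 5.25 and 4.63 in the si-circZFR libraries, and its fall passed the test (log2FC -2.33, standard error 0.17, FDR = 0.0388 by limma). The article, by contrast, reports that RT-PCR detected no effect of its siRNA on ZFR, in A549 cells among others. The cause of this difference was not tested. The circle itself is not measured in these gene-level values, so differences that go with the lower level of ZFR and differences that go with loss of the circle cannot be told apart. Genes known from A549 cells were present at 1296 to 1677 for AKR1B10, 515 to 686 for AKR1C1 and 730 to 1001 for AKR1C2, while FGB was at 0.775 and 1.36 in the NC libraries and 2.60 and 1.91 in the si-circZFR libraries, and FGG at 2.37, 2.21, 5.99 and 4.13 (log2FC 0.87, FDR = 0.116 by limma). The epithelial keratins lay at 735 to 1238 for KRT8 and 1243 to 1786 for KRT18, while EPCAM was at 0.397 and 0.402 in the NC libraries and at 1.83 and 2.66 in the si-circZFR libraries. CDH1, the epithelial cadherin, was likewise higher in both si-circZFR libraries (11.4 and 8.52 against 21.7 and 21.3), and it missed the threshold (log2FC 1.05, FDR = 0.082 by limma). Markers of other cell types were mostly absent. COL1A2, DCN and LUM of fibroblasts, PTPRC and CD3E of leukocytes and ALB, APOA2 and TTR of hepatocytes had no read, the summed level of PECAM1, VWF and CDH5 of endothelium was at most 0.0336, and CD14 lay at 5.76 to 8.03 and COL1A1 at 0.612 to 1.89. CD14, COL1A1, CDH1, EPCAM, KRT8, KRT18, FGB and FGG were higher in both si-circZFR libraries than in both NC libraries, and their part in the results below was not tested. In these bulk libraries, fewer cells that express a gene and less RNA of it per cell cannot be told apart.

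Promoters of 4 members are shown. CYP2S1 had the largest difference between the groups, ALDH1A1 the highest level, and GSTP1 the highest level of the transferases. Among the members tested below, CYP4V2 alone held both motifs. CYP1B1 and ALDH3A1 had no promoter in the RefSeq table. Each window runs from 250 bases before to 50 bases after the RefSeq start (GRCh38.p14), and capitals mark GCGTG or TGACNNNGC on either strand.
CYP2S1, chr19:41192969-41193268 (plus strand): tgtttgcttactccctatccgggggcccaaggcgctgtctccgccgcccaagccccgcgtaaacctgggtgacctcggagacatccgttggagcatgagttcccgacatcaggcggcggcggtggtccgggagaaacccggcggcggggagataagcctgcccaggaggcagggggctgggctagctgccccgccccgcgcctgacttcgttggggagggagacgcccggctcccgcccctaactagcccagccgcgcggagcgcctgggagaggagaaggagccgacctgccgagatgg
ALDH1A1, chr9:72953004-72953303 (minus strand): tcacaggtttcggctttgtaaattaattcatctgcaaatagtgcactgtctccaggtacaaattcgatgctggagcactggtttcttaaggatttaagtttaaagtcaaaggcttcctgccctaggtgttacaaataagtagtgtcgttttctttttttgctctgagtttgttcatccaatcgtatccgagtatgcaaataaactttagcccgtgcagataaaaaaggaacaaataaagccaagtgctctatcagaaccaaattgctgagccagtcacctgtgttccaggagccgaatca
GSTP1, chr11:67583562-67583861 (plus strand): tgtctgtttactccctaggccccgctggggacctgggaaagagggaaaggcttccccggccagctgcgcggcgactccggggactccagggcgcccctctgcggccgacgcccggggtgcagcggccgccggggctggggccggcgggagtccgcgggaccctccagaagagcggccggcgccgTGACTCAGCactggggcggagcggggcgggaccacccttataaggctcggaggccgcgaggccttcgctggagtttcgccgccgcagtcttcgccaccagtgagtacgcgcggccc
CYP4V2, chr4:186191317-186191616 (plus strand): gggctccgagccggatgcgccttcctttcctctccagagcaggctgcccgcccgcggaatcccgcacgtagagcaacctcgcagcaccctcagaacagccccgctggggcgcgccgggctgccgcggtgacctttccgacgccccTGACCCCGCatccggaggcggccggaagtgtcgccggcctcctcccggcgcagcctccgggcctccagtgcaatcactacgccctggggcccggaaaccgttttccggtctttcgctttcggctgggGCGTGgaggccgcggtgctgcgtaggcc
Of the members, 75 had a promoter in the RefSeq table, and 25 of these were expressed highly enough to be tested below. GCGTG lay in 22 of the 75 and in 7 of the 25, against 36.3% of 27305 promoters of the same length. TGACNNNGC lay in 13 of the 75, against 13.6% of all promoters, and in 5 of the 25, namely those of GSTP1, CYP4V2, GSTO1, GSTA4 and CYP4F11. The longer form TNGCGTG, which contains the first core, was in 2 of the 75 and 0 of the 25 (5.51% of all), and the palindromic E-box CACGTG, which shares the letters CGTG with it, was in 4 and 1 (7.43% of all). A match is a string of letters and was not tested as a binding site.

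Sites for the 7-mer CTGACTC in 3′UTRs are shown as well, because an earlier search of these libraries singled it out. The median log2FC was -0.05 over the 1181 tested genes that hold it and 0.04 over the 9267 that do not. It lay in the 3′UTR of 10 of 94 members with one, and in 4 of the 31 members tested (12.9%), against 11.3% of the 10448 genes tested that had a 3′UTR. Capitals mark the 7-mer, with 8 bases on each side, from the canonical transcripts of GENCODE (GRCh38).
ALDH1A3, chr15:100915116-100915138 (plus strand): tgccgaatCTGACTCcagtaaga
ALDH3B1, chr11:68028278-68028300 (plus strand): cctggcatCTGACTCaggccaca
GSTM3, chr1:109734948-109734970 (minus strand): aagaaacaCTGACTCctgtggag
MGST3, chr1:165655616-165655638 (plus strand): taaaactcCTGACTCttaccact
All 4 of these genes are among the members whose si-circZFR libraries both lay below both NC libraries, as given below. Of all genes tested, 28.1% did so. The 7-mer was chosen on these same libraries, so this is not independent evidence of a direction. CYP2S1, the member with the lowest log2FC, had no CTGACTC in its 3′UTR.

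Most of the 96 genes were silent or nearly so. No read was found for 27 of them in any library, 18 had 1 to 9 reads in all, and 31 reached an RPKM of 1 in 2 or more libraries and were tested. A count of 0 in a library allows up to 0.234 to 0.272 CPM (3 reads, counting error only), so these genes were not detectable at this depth. By family, 8 of 36 CYP genes, 11 of 21 GST and MGST genes, 0 of 22 UGT genes and 12 of 17 ALDH genes were tested. The summed level of all members was 2417 and 3062 scaled RPKM in the NC libraries and 2853 and 3008 in the si-circZFR libraries, so the NC libraries lay farther apart than the group means. ALDH1A1 alone took 33.4% and 36.4% of the members' reads in the NC libraries and 42.6% and 44.8% in the si-circZFR libraries. ALDH3A1 added 25.5% and 26.6% and then 26.2% and 24.2%. By mean level per length the order was ALDH1A1, ALDH3A1, GSTP1, ALDH3B1 and MGST1, the 5 members above 100 scaled RPKM, and 13 further members lay between 10 and 100.

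**Figure D1:**
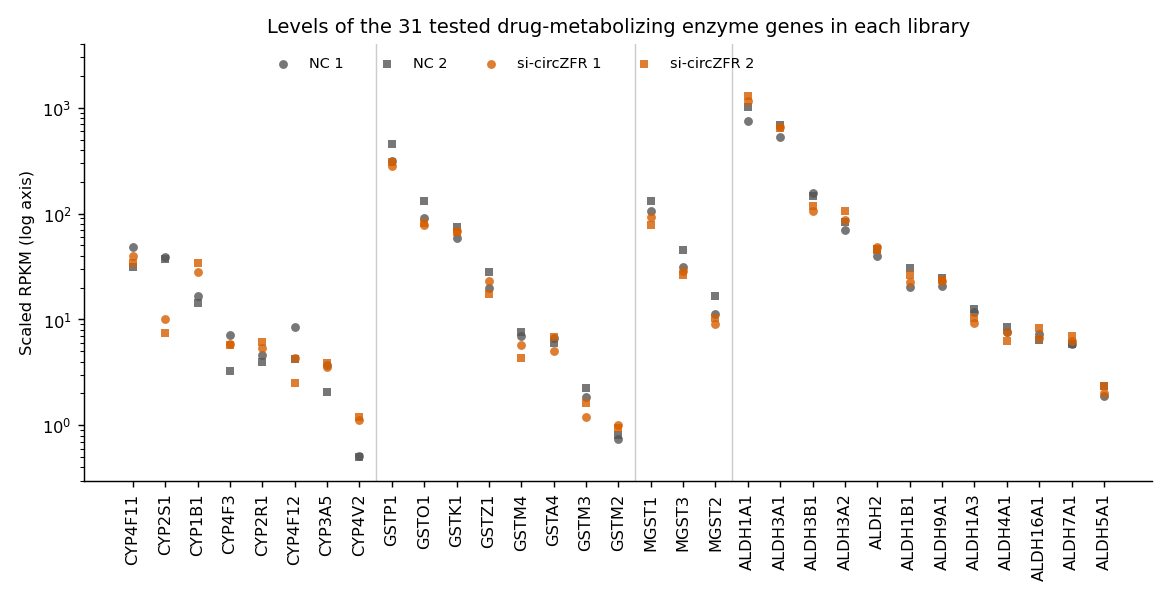
Scaled RPKM (log axis) of the 31 tested members in the 4 libraries, grouped as CYP, GST, MGST and ALDH genes. ALDH1A1 and ALDH3A1 lie highest, at 753 to 1301 and 529 to 680, and CYP2S1 has the widest gap between the groups.

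None of the 31 members passed at FDR under 0.05 and a log2FC beyond 1 in either direction, where 0.0576% of the 13885 genes tested did (8 genes). At an unadjusted p under 0.05, 4 members (12.9%) differed by limma, against 21.7% of all genes. CYP1B1 and CYP4V2 were higher, and CYP2S1 and GSTM4 were lower. Limma-voom on recovered reads passed 1 member, CYP2S1, against 2.15% of all genes. Both si-circZFR libraries lay below both NC libraries for 10 members (32.3%) and above them for 7 (22.6%), against 28.1% of all genes in each direction, so members separated about as often as genes in general. CYP4V2 and GSTM2 reached the filter in the si-circZFR libraries only, so their place among the 7 was set in part by the filter. In a comparison added after seeing the data, without them and without the 3.47% of all genes that reached it in 1 group only, 10 of 29 members lay below (34.5%) and 5 above (17.2%), against 28.0% and 26.7% of genes. An unadjusted p under 0.05 by limma was then found for 3 of the 29 members, against 2743 of 13403 genes. The median log2FC was -0.05 over the members and 0.01 over all genes. With scaling by library size alone the medians were 0.12 and 0.15, and the split became 5 members below and 11 above, where 18.2% and 39.6% of all genes were.

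**Figure D2:**
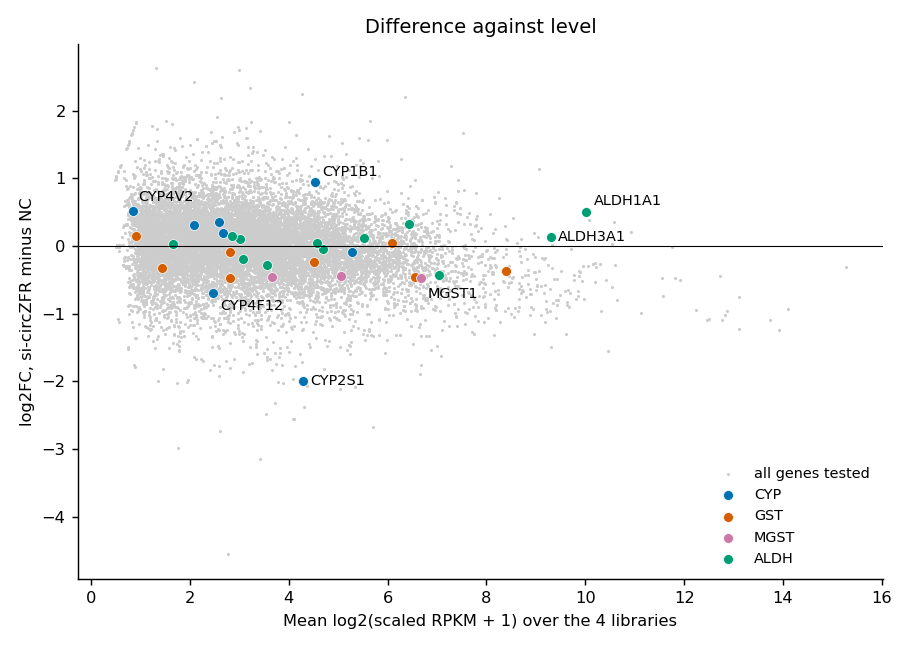
log2FC between si-circZFR and NC against the mean log2 level (scaled RPKM + 1) for the 31 tested members over all 13885 genes tested (grey). CYP2S1 at -2.003 and CYP1B1 at 0.95 are the members farthest from 0 in each direction.

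CYP2S1 showed the widest difference of any member. This P450 is found in epithelia that face the outside, such as airway and gut, and lies on chromosome 19 from 41193219 to 41207539 (RefSeq GRCh38.p14, like the positions that follow). Its level was 38.9 and 37.2 scaled RPKM in the NC libraries and 10.1 and 7.51 in the si-circZFR libraries, from 1195, 1128, 304 and 241 reads. The 2 groups did not overlap, and the means were 38.0 ± 1.21 and 8.81 ± 1.84 (SD, n = 2 each), 4.31-fold lower after silencing. The log2FC of -2.003 (standard error 0.19) missed the threshold at FDR = 0.0585 by limma, although its p was the 11th smallest of the 13885. Limma-voom gave -2.12 with FDR = 0.00957. Over the 13 other settings tried, the log2FC ran from -2.18 to -1.80 and FDR from 0.00957 to 0.283, and it passed in 5, one of them without NC 1. Outside the families, the patterns over the 4 libraries nearest to that of CYP2S1 belonged to RHOG, RNF5 and EDN2, at Euclidean distances of 0.158, 0.213 and 0.359 between centred log2 levels. RHOG, a small GTPase, read 42.4 and 40.2 in the NC libraries and 11.4 and 7.22 in the si-circZFR libraries. RNF5, a ubiquitin ligase of the endoplasmic reticulum, read 22.2 and 23.7 and then 6.91 and 4.74, and the peptide hormone gene EDN2 read 22.7 and 19.2 and then 6.53 and 5.26.

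CYP1B1 differed in the other direction. It hydroxylates oestrogens and polycyclic hydrocarbons outside the liver and lies on chromosome 2 from 38067509 to 38076151. Scaled RPKM was 16.8 and 14.5 in the NC libraries and 28.1 and 34.2 in the si-circZFR libraries, with 863 to 2158 reads a library. Means of 15.6 ± 1.66 and 31.2 ± 4.29 (SD, n = 2 each) gave a 1.99-fold higher level, with no overlap. The log2FC was 0.95 (standard error 0.18, FDR = 0.0837 by limma), and limma-voom gave FDR = 0.039 at a log2FC of 0.99. It passed in 1 of the 13 settings, which left out NC 1. CYP1A1, the classic gene induced through AHR, had only 10, 12, 8 and 3 reads in the same order and was not tested, and CYP1A2 had none.

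Other P450 genes were low apart from CYP4F11. CYP4V2, a fatty acid hydroxylase whose loss causes a retinal dystrophy, lay at 0.514 and 0.503 in the NC libraries and 1.12 and 1.19 in the si-circZFR libraries, from 28 to 70 reads. Its groups did not overlap and the mean was 2.28-fold higher, but the log2FC of 0.52 (standard error 0.20) had FDR = 0.215 by limma. It reached the filter through the si-circZFR libraries alone, and a gene tested on that ground has to be higher there. CYP2R1, the vitamin D 25-hydroxylase, also had both si-circZFR libraries above both NC libraries, at 4.64, 3.99, 5.43 and 6.19 in the same order (log2FC 0.36, standard error 0.17, FDR = 0.283 by limma). CYP4F11, a long-chain fatty acid hydroxylase, overlapped between the groups at 48.5, 31.5, 39.9 and 33.8 (log2FC -0.09, FDR = 0.855 by limma).

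In 3 further CYP genes the NC libraries disagreed with each other by more than the groups did. CYP4F3, which acts on leukotriene B4, was at 7.19 in NC 1 and 3.27 in NC 2 and at 5.87 and 5.69 in the si-circZFR libraries. CYP4F12 read 8.56 and 4.21 and then 4.35 and 2.52 (log2FC -0.70, standard error 0.35, FDR = 0.301 by limma). CYP3A5, the extrahepatic drug oxidase of the CYP3A group, read 3.71 and 2.07 and then 3.54 and 3.90. None of these differences was larger than the spread between libraries. CYP4F genes are close in sequence, and how reads that match more than 1 of them were counted is not given in the sources used here. As a family the 8 tested CYP genes had a median log2FC of 0.25, with 1 gene below (12.5%), 3 above (37.5%) and 4 overlapping, against 28.1% of all genes in each direction, and the median was -0.14 without NC 2. The hepatic enzymes were nearly silent, with 1 read of CYP3A4 in all, 7 to 27 reads a library of CYP2D6 and none of CYP2B6, CYP2C8, CYP2C19 and CYP3A7. Of the 28 CYP genes not tested, 15 had no read, and CYP2U1 had the most, with 51, 42, 74 and 51 reads.

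**Figure D3:**
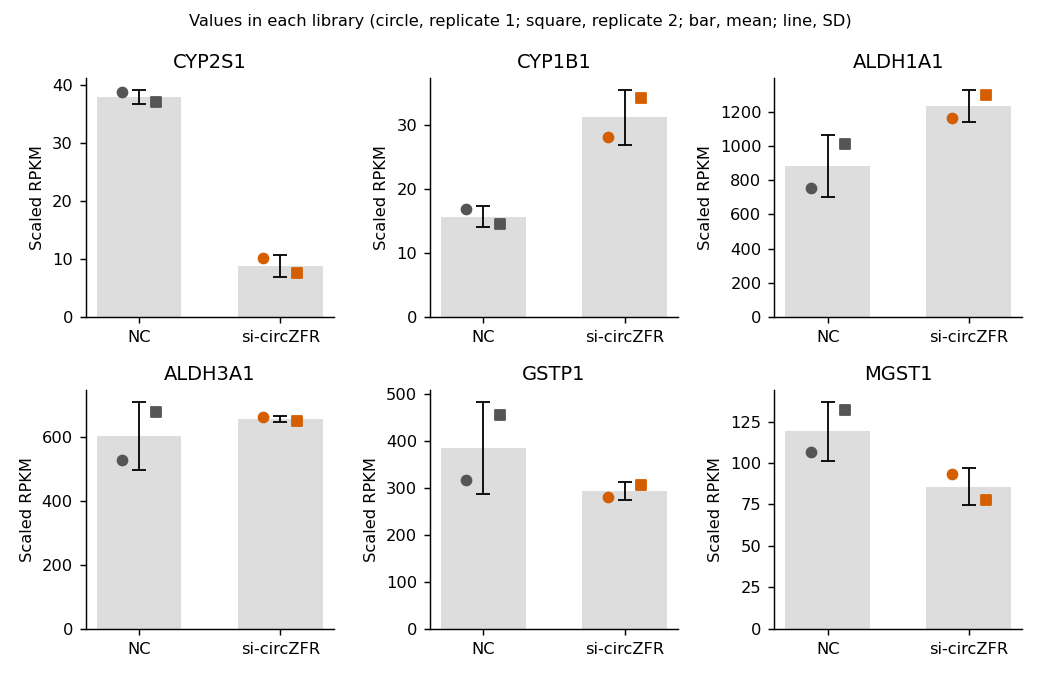
Scaled RPKM of CYP2S1, CYP1B1, ALDH1A1, ALDH3A1, GSTP1 and MGST1 in each library (circle, replicate 1; square, replicate 2), with bars at the group means and lines for the SD (n = 2 each). CYP2S1 lies between 7.51 and 10.1 in the si-circZFR libraries against 37.2 and 38.9 in NC, and the values of ALDH3A1 overlap.

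ALDH1A1, which oxidizes retinal to retinoic acid and serves as a marker of tumour cells with stem-like traits, was the most abundant member. It lies on chromosome 9 from 72900671 to 72953053. Levels were 753 and 1009 in the NC libraries and 1167 and 1301 in the si-circZFR libraries, from 20921 to 37739 reads. Both si-circZFR libraries lay above both NC libraries, and the means were 881 ± 181 and 1234 ± 95.2 (SD, n = 2 each), 1.40-fold higher. The log2FC of 0.50 (standard error 0.31, FDR = 0.392 by limma) did not pass, and NC 2 and NC 1 differed by 0.42 on the same scale. It was 0.71 without NC 2 and 0.28 without NC 1. With this many reads, counting error is small here and the spread between libraries sets the precision.

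ALDH3A1, an aldehyde dehydrogenase of cornea and lung tumours, overlapped between the groups. It lies on chromosome 17 from 19737984 to 19748298, and its levels were 529 and 680 in the NC libraries and 663 and 650 in the si-circZFR libraries, with means of 605 ± 107 and 657 ± 9.53 (SD, n = 2 each). The log2FC was 0.13 (standard error 0.27, FDR = 0.803 by limma), and -0.06 without NC 1. Its neighbour ALDH3A2, the fatty aldehyde dehydrogenase of the endoplasmic reticulum, read 70.6 and 83.1 in the NC libraries and 87.4 and 104.7 in the si-circZFR libraries, with no overlap (log2FC 0.32, standard error 0.19, FDR = 0.38 by limma).

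ALDH3B1, which acts on membrane-derived aldehydes, went the other way. Its levels of 158 and 146 in the NC libraries and 106 and 119 in the si-circZFR libraries did not overlap, but the log2FC of -0.44 (standard error 0.19) had FDR = 0.245 by limma. ALDH1A3, a second retinal dehydrogenase, was at 11.8, 12.4, 9.18 and 10.4 in the same order (log2FC -0.29, FDR = 0.333 by limma). A correction for gene length left the log2FC of ALDH3B1 at -0.47. For ALDH1A3 it gave -0.00, but the length used there was 874 bases. Its 3′UTR alone holds 1853 bases in the canonical GENCODE transcript, so that corrected value cannot be relied on. The other ALDH genes tested were closer between groups. ALDH2, the mitochondrial enzyme that clears acetaldehyde, was at 40.1, 46.6, 48.8 and 45.6, and ALDH1B1, ALDH9A1, ALDH16A1, ALDH4A1, ALDH7A1 and ALDH5A1 had log2FC from -0.19 to 0.14. Over the 12 ALDH genes the median was 0.07, with 2 below (16.7%), 3 above (25%) and 7 overlapping, against 28.1% of all genes in each direction. ALDH6A1, ALDH3B2, ALDH1L1 and ALDH8A1 had too few reads for the filter, and ALDH1A2 had none.

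The glutathione transferases lay mostly on the low side after silencing, by amounts that did not pass. Of the 11 tested, 9 had a lower mean in si-circZFR, 7 had both si-circZFR libraries below both NC libraries (63.6%, against 28.1% of all genes) and 1 had both above. The median log2FC was -0.37. GSTP1, the main cytosolic transferase of lung, read 317 and 455 in the NC libraries and 281 and 307 in the si-circZFR libraries (log2FC -0.37, standard error 0.26, FDR = 0.444 by limma). GSTO1, an omega-class thioltransferase, read 91.7 and 131 and then 77.8 and 81.3 (log2FC -0.46, standard error 0.22, FDR = 0.295 by limma). In both genes the gap between the NC libraries was wider than that from NC 1 to the si-circZFR libraries.

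The 3 microsomal transferases are small membrane proteins that act on glutathione conjugates, lipid peroxides and leukotrienes. All 3 had both si-circZFR libraries below both NC libraries, where 28.1% of all genes tested did. MGST1 was at 107 and 132 in the NC libraries and 93.6 and 78.0 in the si-circZFR libraries (log2FC -0.47, FDR = 0.257 by limma). MGST2 was at 11.3 and 16.8 and then 9.15 and 10.4 (log2FC -0.46, FDR = 0.283 by limma), and MGST3 at 31.1 and 45.4 and then 28.8 and 26.0 (log2FC -0.44, FDR = 0.297 by limma).

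Among the mu class, GSTM4 had the smallest p of the transferases, at 6.93 and 7.57 in the NC libraries and 5.69 and 4.30 in the si-circZFR libraries (log2FC -0.47, standard error 0.18, FDR = 0.221 by limma). GSTM3 lay lower by a similar margin (1.84, 2.24, 1.20 and 1.64), and GSTM2 was the 1 transferase with both si-circZFR libraries above, at 0.75, 0.818, 1.003 and 0.939, and it too reached the filter through those libraries alone. Mu-class genes lie side by side and are similar in sequence, so reads may be split between them. GSTK1, the peroxisomal and mitochondrial kappa enzyme, overlapped between the groups at 58.3, 74.4, 68.8 and 66.6, as did GSTZ1 and GSTA4. GSTM1 and GSTT1, which many people lack, had 5 reads in all and none.

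These low values moved with gene length and with the NC library left out. The transferase genes were short, with a median length of 1412 bases against 2677 over all genes, and across the 13885 genes tested the log2FC between si-circZFR and NC was higher in longer genes (Spearman's rho 0.294, across genes, which are not independent replicates). Between NC 2 and NC 1 the same correlation was -0.343, and between the si-circZFR libraries it was 0.0188. NC 2 exceeded NC 1 by a median log2 difference of 0.34 over the 11 genes. After a correction for length the median log2FC of the transferases was -0.24, with 6 below and 2 above, where 28.8% and 26.6% of all genes were, and without NC 2 the median was -0.18. The microsomal genes went from a median of -0.46 to -0.33 with the correction and to -0.20 without NC 2. Leaving out NC 1 instead moved the log2FC further down. It was then -0.63 for GSTP1, -0.72 for GSTO1, -0.62 for MGST1, -0.73 for MGST2 and -0.71 for MGST3. GSTM4 was at -0.53, GSTM3 at -0.43 and GSTK1 at -0.14 without NC 1. The part of length and of each NC library in these values was otherwise not tested.

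**Figure D4:**
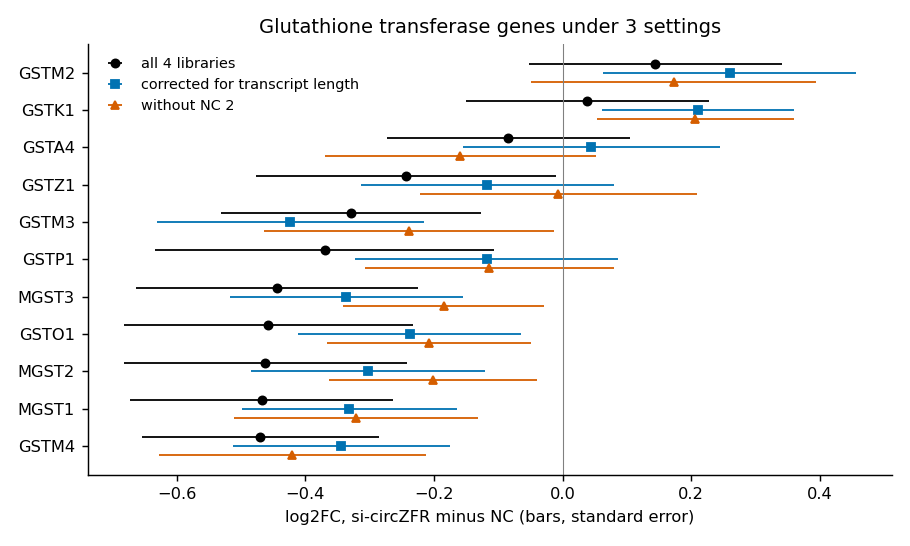
log2FC with its standard error for the 11 tested glutathione transferases with all 4 libraries, with a correction for gene length, and without NC 2. GSTP1 goes from -0.37 to -0.12 and -0.11, while GSTM4 stays at -0.47, -0.34 and -0.42.

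No UGT gene reached the filter. The 9 UGT1A genes, which conjugate bilirubin, phenols and steroids, all had some reads, with sums of 91 and 116 reads in the NC libraries and 143 and 110 in the si-circZFR libraries. UGT1A7 was at 0.658 and 0.888 scaled RPKM in the NC libraries and 1.047 and 0.875 in the si-circZFR libraries, and UGT1A8 at 0.715, 0.724, 1.050 and 0.715, so both overlapped between the groups. The UGT1A genes are transcripts of 1 locus that differ in their first exon and share the rest, so reads on the shared exons cannot be assigned to one of them. How such reads were counted is not given in the sources used here, and the sums may hold the same read more than once. The 13 UGT2, UGT3 and UGT8 genes summed to 4, 17, 10 and 6 reads, most of them on UGT2B7 and UGT2B11, and 5 genes, UGT2B17 among these, had none. At this depth no difference in the UGT family could be shown.

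Genes that work with these enzymes were taken as 4 lists, of regulators, redox partners and cofactors, other enzymes of both phases, and transporters. None of the 13 regulators tested passed by limma, and 1 differed higher and 2 lower at an unadjusted p under 0.05 (23.1%, against 21.7% of all genes). MAFK, a small MAF partner of NFE2L2, was at 28.1 and 20.6 in the NC libraries and 48.1 and 59.8 in the si-circZFR libraries (log2FC 1.12, standard error 0.22, FDR = 0.0878 by limma), and it was the 1 gene of its list that passed by limma-voom (FDR = 0.037). TIPARP, a repressor of AHR and itself induced by it, was lower at 14.9, 18.8, 10.1 and 9.58 (log2FC -0.71, FDR = 0.118 by limma). AHR and NFE2L2 are given because the families depend on them, and were picked with their values known. AHR read 9.68 and 10.2 in the NC libraries and 7.81 and 7.95 in the si-circZFR libraries (log2FC -0.30, FDR = 0.301 by limma). NFE2L2 read 32.7 and 35.7 and then 27.9 and 20.4 (log2FC -0.50, FDR = 0.226 by limma). Over the list, 5 genes lay below and 5 above (38.5% each, against 28.1% of all genes) and 3 overlapped, with a median of 0.08. The xenobiotic receptor genes NR1I2 and NR1I3 had no read.

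Among the 19 redox partners and cofactors, none passed by limma or by limma-voom, and 4 differed lower and 1 higher at an unadjusted p under 0.05 (26.3%, against 21.7% of all genes). Of these genes 9 lay below (47.4%) and 1 above (5.26%), against 28.1% of all genes in each direction (median -0.07). HMOX1, the haem oxygenase, was at 76.8 and 92.6 in the NC libraries and 46.3 and 41.1 in the si-circZFR libraries (log2FC -0.94, standard error 0.18, FDR = 0.0902 by limma). CYB5R2, a cytochrome b5 reductase, was at 2.96, 2.79, 1.62 and 1.47 (log2FC -0.61, FDR = 0.145 by limma). POR, named here as the electron donor of the P450s and with its values known, was at 84.1, 79.8, 67.0 and 60.5 (log2FC -0.36, FDR = 0.279 by limma).

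The 25 other enzymes tested had 6 genes below (24.0%), 2 above (8%) and 17 overlapping, against 28.1% of all genes in each direction, with a median of -0.02. None passed by limma or limma-voom, with 0 higher and 1 lower at an unadjusted p under 0.05 (4%, against 21.7% of all genes). NQO2, a quinone reductase, was at 30.9 and 29.8 in the NC libraries and 22.3 and 23.7 in the si-circZFR libraries (log2FC -0.39, FDR = 0.216 by limma). Of the 9 transporters tested, 2 lay below (22.2%) and 3 above (33.3%), 0 passed by limma or limma-voom, and 0 differed higher and 1 lower at an unadjusted p under 0.05 (11.1%). SLCO4A1, an organic anion carrier, read 7.52 and 5.66 and then 4.59 and 3.68 (log2FC -0.56, FDR = 0.193 by limma). ABCC3, an exporter of glucuronides, read 189 and 116 and then 221 and 192 (log2FC 0.48, FDR = 0.369 by limma).

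**Figure D5:**
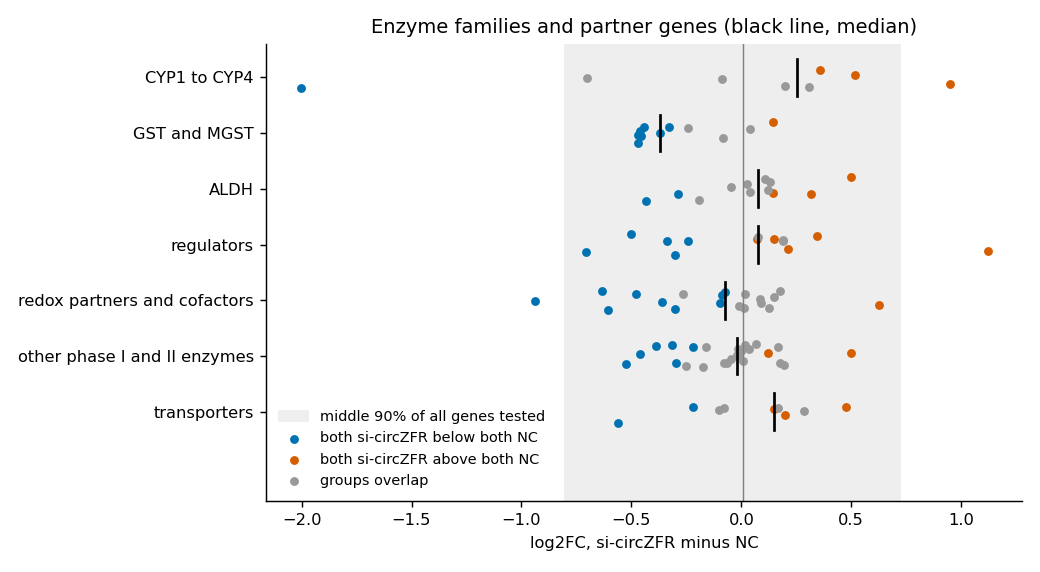
log2FC of each tested gene by enzyme family and by list of working partners, with the median as a black line. Shading spans the middle 90% of all genes, and blue and orange points are genes whose si-circZFR libraries both lie below or both above the NC libraries. GST and MGST genes lie mostly below 0 and inside the shading, and CYP2S1 lies farthest outside it.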

How the data were processed

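Total RNA from 2 NC and 2 si-circZFR libraries was sequenced by the authors on the Ion Proton. The deposited values are RPKM per gene. The article names hg38 and the submitters' processing notes GRCh37, and the aligner and gene annotation are not given in the sources used here. The article mentions SVA against batch effects, and no such correction could be seen in the deposited RPKM, which step in whole reads.

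Libraries were set on a common scale by unweighted trimmed means (log ratios trimmed by 30%, levels by 5%), with factors from 0.904 to 1.11. The 13885 genes that reached an RPKM of 1 in 2 or more libraries entered limma on log2(scaled RPKM + 1) with a trended prior variance, two-sided, adjusted by Benjamini-Hochberg over all of them. A gene passed at FDR under 0.05 and |log2FC| over 1. Fold changes on this scale understate changes of low genes. An exact permutation test of 2 against 2 libraries cannot go below p = 0.333 and was not used. Whole reads were recovered from the RPKM values of 24271 of 24289 genes above 0 (tolerance 0.001 of a read) and summed to 98.4% to 98.6% of library totals of 11040050 to 12816868 reads. The length taken was the smallest that gave whole reads, or for genes with few reads a multiple of it. Lengths and reads of some genes, such as ALDH1A3, may therefore be too low by a whole factor. The reads served for depth, the CPM filter and limma-voom, and the lengths for the length correction. The scripts were tested on simulated data.

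The members and lists were chosen with earlier results of these data known. The rule for named genes took CYP2S1, ALDH1A1 and ALDH3A1, the 3 members of each family with the smallest p and the 3 with the highest level, the 2 genes of each partner list with the smallest p, the cell line markers, ZFR and the 3 nearest patterns to CYP2S1. A few genes that this rule takes are not reported here. Further genes are named for counts of reads or for their role. Alternatives covered scaling, filter, pseudocount, prior, limma-voom, a replicate block, gene length and each library left out. R 4.3.3, limma 3.58.1, Python 3.11.15, numpy 2.4.6, pandas 2.3.3 and matplotlib 3.10.9 were used.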

Additional observations from a re-analysis of the deposited data

How the results depend on the processing

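CYP2S1 kept its direction under all 13 alternatives, and whether it passed depended on the setting. It passed with a filter of CPM above 1 (log2FC -2.003, FDR = 0.0222), with limma-voom (-2.12, FDR = 0.00957), with the length correction (-2.02, FDR = 0.0413) and without NC 1, and the number of members passing was then 1, 1 and 1, and 2 without NC 1 (CYP2S1 and CYP1B1). All genes passing, 8 as reported, numbered 200 with the CPM filter, 298 with limma-voom, 15 with the length correction, 2 with a pseudocount of 0.1, 1 without the trend in the prior variance, and 0 without a filter, where 3676 of 24289 genes had an unadjusted p under 0.05. Library size alone gave a median log2FC of the members of 0.12, 5 members below and 11 above, and a log2FC of CYP4F11 of 0.081. The CPM filter gave a median of 0.027 over 37 members. Without a filter 17 of 69 members lay below. The share of all genes below was not computed at that setting, so this count cannot be set beside the 10 of 31 in the main fit. Without 1 library each, members passing ran from 0 to 2 and all genes passing from 0 to 937 (937 without NC 1, 0 without each of the others, with 1070 to 2546 genes at an unadjusted p under 0.05). The median of the members then ran from -0.086 to 0.029, the log2FC of CYP2S1 from -2.18 to -1.80, ALDH1A1 from 0.28 to 0.71, ALDH3A1 from -0.055 to 0.31, CYP4F11 from -0.40 to 0.21, GSTK1 from -0.14 to 0.21, CYP3A5 from -0.0024 to 0.62 and CYP4F3 from -0.28 to 0.67. The cause of these shifts was not tested. Counts of members above were not recomputed with a library left out, and counts below only without NC 2. Both si-circZFR libraries then lay below NC 1 for 13 of 31 members and for 5445 of 13633 genes tested. With 1 NC library this is met more easily, so these counts cannot be set beside those from all 4 libraries.

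Replicate numbers 1 and 2 stand in both groups, but the deviations of same-numbered libraries correlated at only 0.069 over genes and nothing else ties them, so the pairing is a shared number. A fit with the replicate block passed 1 member, CYP2S1 (log2FC -2.003, FDR = 0.0323), and 63 genes in all.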
